A study of Mus musculus with 16 samples.

Results

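Fat from the mouse groin (inguinal white adipose tissue, a depot under the skin) was compared between a high-fat diet (HF) and a control diet (CD) in 16 RNA-seq libraries, 8 on each diet. All 16 libraries of the series entered. On each diet 4 libraries came from mice given an anti-PDGFcc antibody and 4 from untreated mice, so the diet difference could be read once over both antibody states and again within each. The members described here are the genes that differed by diet in both states, 1474 of the 16091 genes in the table. They passed an adjusted p of 0.05 in a fit over all 16 libraries with antibody as an additive covariate, and had the same sign and an unadjusted p under 0.05 in each of 2 separate fits to the 8 antibody-treated and the 8 untreated libraries.

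White adipocytes take up sugar under insulin, turn it through glycolysis, pyruvate and the citrate shuttle into cytosolic acetyl-CoA, and build fatty acids from it, a route known as de novo lipogenesis. The transcription factors SREBP-1c and ChREBP are known to drive the genes of this route, and dietary fat is known to lower them in adipose tissue and liver. Expanding fat pads are also known to remodel their matrix and to take in macrophages. PDGF-CC, the growth factor the antibody binds, signals through PDGFRA, a receptor carried by progenitors of adipocytes.

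The 4 groups, each of 4 libraries, were HF with antibody, HF untreated, CD with antibody and CD untreated. All mice were C57BL6/J. Mice were fed first and dosed afterwards: the antibody was injected into the peritoneum (50 mg/kg, volume 100 µl, in PBS) at intervals of 2 days over 2 weeks, in mice given as 6 weeks old. The composition and duration of the diets, the sex of the mice and any injection given to untreated mice are not stated in the labels. The labels also leave unsaid whether each library is a separate mouse, so the p-values reflect variation among these samples and part of it may be technical. Messenger RNA was selected by its poly-A tail and the deposited values are linear normalized counts, with column totals of 24.02 to 28.15 in units of 1e6. Differences below are HF minus CD on the log2(normalized count + 1) scale with their SE, over 8 libraries on each diet. This scale understates the change of low genes.

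Of 16091 genes, 2758 (17.1%) differed by diet at an adjusted p under 0.05 (limma, Benjamini-Hochberg over all genes), 1162 of them higher on HF (7.22%) and 1596 lower (9.92%). The genes that also differed in each antibody state numbered 1474 (9.16%), of which 508 were higher (3.16%) and 966 lower (6.00%). Of the 161 that differed by at least 2-fold, 119 fell and 42 rose. Over all 16091 genes, 185 had all 8 HF libraries beyond all 8 CD libraries. Among the 1474 genes 172 did, 112 of them lower and 60 higher. The median difference over all genes was 0.02. Just inside and just outside the threshold lay Ikzf2 (-0.41 ± 0.14), Hnrnph2 (0.13 ± 0.04) and Nup214 (0.18 ± 0.06), all with an adjusted p of 0.05 at the precision given.

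The 2 antibody states share no library. An unadjusted p under 0.05 was reached by 3698 genes in antibody-treated libraries and by 3318 in untreated ones, and 1503 genes reached it in both, 1484 of those with the same sign (98.7%) and 19 with opposite signs. Over all genes 70.8% had the same sign, and the differences in the states correlated at 0.0178 (Pearson) and 0.476 (Spearman). Each state alone was less resolved: 665 genes passed an adjusted p of 0.05 in antibody-treated libraries and 0 in untreated ones (limma). The median spread within a diet was 0.17 log2 units with antibody and 0.23 without. No gene passed the test of the interaction between diet and antibody (0 at an adjusted p under 0.05, smallest 0.256, and 1004 at an unadjusted p under 0.05, 6.24%, limma).

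**Figure D1:**
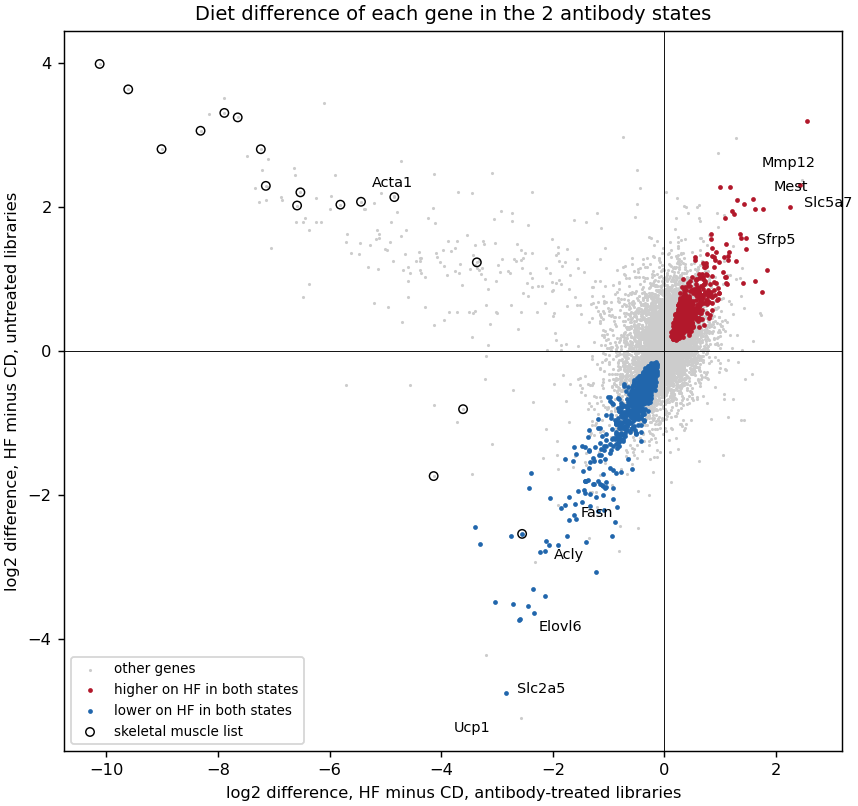
Each point is a gene, with its log2 diet difference (HF minus CD) in the 8 antibody-treated libraries on the x axis and in the 8 untreated libraries on the y axis. The 508 genes higher and 966 genes lower in both states share a sign between the states because the rule chose them so. Their difference was smaller in size with antibody for 1232 of the 1474 genes, with a median ratio of 0.725 to the untreated difference. The rule shapes this ratio too. The median spread within a diet was 0.17 with antibody and 0.23 without, so a gene needed a larger difference without antibody to meet the rule. The contrast between the states was not tested for the set, and the ratio does not measure an effect of the antibody. Most of the 17 skeletal muscle genes (open circles) lie far to the left with antibody and above 0 without.

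Some libraries stood apart, and this bears on every count. Untreated CD replicate 1 was the lowest of its group of 4 for 900 of the 966 falling genes (93.2%) and the highest for 373 of the 508 rising genes (73.4%), so it lay nearest to the HF libraries. Untreated HF replicate 1 was in turn the highest of its group for 715 of the 966 falling genes (74%), and the lowest for 208 of the 508 rising genes (40.9%). Whether these 2 libraries carry the right labels was not tested. Without untreated CD replicate 1 the counts were 4256 genes by diet and 2019 in both states. Without untreated CD replicate 4, the setting with the fewest calls among the 16 that leave out a library, they were 1583 and 869. An earlier account of these data had doubted 2 others, untreated CD replicate 3 and untreated HF replicate 2, called the 2 doubted libraries below. They were the nearest of their groups to the other diet for 1.76% and 6.83% of the falling genes. The 2 untreated replicates 1 were not left out together. Without the doubted pair the counts were 1746 and 698, with 631 of the 1474 genes among the 698. Every one of the 2758 genes kept its sign, which their choice by a difference in these same libraries nearly fixes in advance.

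Skeletal muscle RNA also varied between the pads, in opposite directions in the 2 states. Acta1, the actin of skeletal muscle fibres, read 102.9, 1756, 752.4 and 302.8 normalized counts in HF libraries with antibody, against 31740, 29060, 5982 and 26640 in CD libraries with antibody. In untreated libraries it read 1212, 92640, 3835 and 5581 on HF, against 4521, 6440, 1477 and 179 on CD. The diets did not overlap with antibody and overlapped without. The summed level of the 17 measured muscle genes was 496 to 11400 in HF and 43100 to 230000 in CD libraries with antibody, and 8030 to 687000 in HF and 574 to 44600 in CD libraries without. Their median difference was -6.58 with antibody and 2.20 without, and 2 of the 17, Myh2 and Mb, passed the additive test (both lower). With the mean of these muscle genes as a further covariate 3364 genes differed by diet. In both states 80 did. Within the antibody-treated libraries muscle level and diet cannot be told apart. Adipocyte markers overlapped between the groups: the summed level of 23 mature adipocyte genes was 2080000 to 2200000 and 1870000 to 2170000 in HF libraries with and without antibody, and 1840000 to 2130000 and 1920000 to 2180000 in the CD libraries. In bulk tissue, fewer cells of a type and less RNA per cell cannot be told apart.

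Genes that build fatty acids were lower on HF. Of 11 measured genes that supply cytosolic acetyl-CoA and NADPH, 10 fell (8 of them in both states) and 0 rose, with a list median of -0.85 beside 0.02 for all genes. Of 16 genes of fatty acid synthesis and elongation, 8 fell (7 in both states) and 0 rose (median -0.61). Without the 2 doubted libraries the falls numbered 8 and 5.

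Fasn, the fatty acid synthase that joins acetyl and malonyl units into palmitate (GRCm38 chromosome 11, 120805846 to 120824547), read 142900, 134000, 121700 and 229300 normalized counts in HF libraries with antibody and 196700, 101000, 95630 and 64050 in untreated HF libraries. The CD libraries had 694400, 577400, 371500 and 409600 with antibody and 278900, 470500, 837200 and 752900 untreated. All 8 HF libraries lay below all 8 CD libraries, and the difference of -2.03 ± 0.285 (adjusted p = 0.00223, limma) corresponds to a 4.09-fold lower level. The difference was -1.71 ± 0.29 with antibody and -2.35 ± 0.48 without.

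Acly, which cleaves citrate to cytosolic acetyl-CoA (chromosome 11, 100476353 to 100528000), read 11190, 12560, 11650 and 16340 in HF libraries with antibody and 15690, 12450, 11200 and 6912 in untreated HF libraries. The CD libraries read 86260, 78760, 37060 and 38220 with antibody and 25480, 60660, 117400 and 125800 untreated. Again no library overlapped, and the difference was -2.38 ± 0.31 (adjusted p = 0.00198, limma), a 5.21-fold lower level. Acss2, which makes acetyl-CoA from acetate, had a median of 4357 on HF (range 2601 to 5853) against 15990 on CD (9243 to 26680), a difference of -1.79 ± 0.23, although its exons overlap those of Ggt7 and Gss on the opposite strand.

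Elovl6, which elongates palmitate to stearate, read 2829, 2808, 1354 and 5409 in HF libraries with antibody and 4315, 1093, 1235 and 811.6 in untreated HF libraries. In CD libraries the values were 24810, 19530, 10090 and 10510 with antibody and 4814, 14120, 40890 and 31650 untreated. Only untreated CD replicate 1 fell within the HF range, and the difference was -2.995 ± 0.46 (adjusted p = 0.00288, limma). Its exons overlap those of Gm35986 on the opposite strand. Acaca, the acetyl-CoA carboxylase that makes malonyl-CoA, differed by -1.70 ± 0.26 (median 14770 on HF and 51310 on CD).

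The enzymes that furnish NADPH and carry citrate moved the same way. Tkt, the transketolase of the pentose phosphate pathway, fell by 1.74 ± 0.25, Me1, the cytosolic malic enzyme, by 1.66 ± 0.24, and Slc25a1, the mitochondrial citrate carrier, by 1.58 ± 0.24. Tkt and Me1 had no overlap between the 8 HF and the 8 CD libraries. Idh1, the cytosolic isocitrate dehydrogenase, was the 1 gene of this list that did not pass (-0.08 ± 0.06, adjusted p = 0.42, limma).

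Thrsp, a small protein that promotes lipogenesis, had a median of 17570 on HF (13840 to 20330) and 43710 on CD (22920 to 73400), a difference of -1.40 ± 0.20 with no overlap. The transcription factors themselves moved less. Srebf1, which encodes SREBP-1, fell by 0.59 ± 0.18 (adjusted p = 0.0328, limma) and Mlxipl, which encodes ChREBP, by 0.58 ± 0.19 (adjusted p = 0.0428, limma). Mlxipl did not meet the rule for both states, and without the 2 doubted libraries neither passed (adjusted p = 0.0948 and 0.104). Mlx, the partner of ChREBP, fell by 0.53 ± 0.11 and met the rule. Of 19 lipogenic regulators measured, 7 fell and 0 rose, and without the 2 doubted libraries 2 fell.

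Among 11 desaturation genes 4 fell and 1 rose (45.5% called, beside 17.1% of all genes). Scd1, the main stearoyl-CoA desaturase of fat, had a median of 861900 on HF (737700 to 980300) against 1613000 on CD (1152000 to 2561000). Its libraries did not overlap in either state, and the difference was -0.95 ± 0.29 (adjusted p = 0.0329, limma). The gene did not meet the rule for both states, with an unadjusted p of 0.0674 with antibody and 0.115 without (limma). Fads2, the delta-6 desaturase, fell by 0.66 ± 0.12 over all 16 libraries, with differences of -0.36 with antibody and -0.96 without. Fads3 rose by 0.48 ± 0.13 (adjusted p = 0.0214, limma, and 0.053 without the 2 doubted libraries). Scd1 was called in 7 of the 16 settings that leave out a library.

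**Figure D2:**
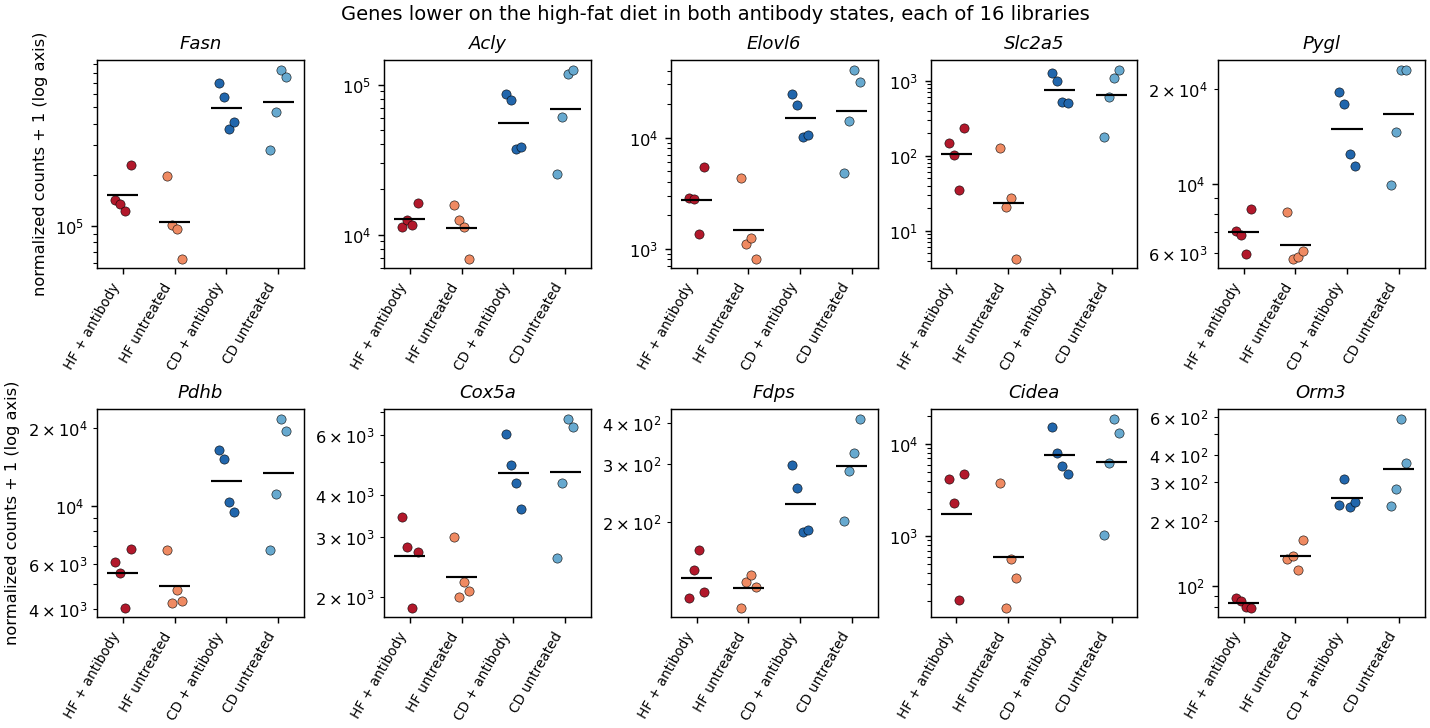
Normalized counts plus 1 on a log axis for 10 genes lower on HF in both states, with 1 dot per library and a line at the mean of the log2 values of each group of 4. For Fasn, Acly, Pygl, Fdps and Orm3 every HF library lay below every CD library, and for the other genes untreated CD replicate 1, leftmost in its group, usually lay closest to the HF values.

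Genes of sugar entry fell in part. Of 25 genes of glucose and fructose entry and glycolysis, 13 fell (11 in both states) and 1 rose, with a median of -0.63. Slc2a5, the fructose transporter GLUT5, had the largest fall of those among the 1474 genes that the naming rule ranked. The rule asked for a mean of at least 100 normalized counts in the higher diet and left out predicted genes. It read 147.2, 100.8, 33.49 and 236.2 in HF libraries with antibody and 126.8, 19.72, 26.39 and 3.249 in untreated HF libraries. On CD the values were 1268, 976.9, 520.2 and 509.7 with antibody and 175.4, 601.8, 1097 and 1410 untreated. The difference was -3.80 ± 0.64 (adjusted p = 0.00424, limma), and within each state the diets did not overlap. Khk, the ketohexokinase that phosphorylates fructose, fell by 0.46 ± 0.07.

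Slc2a4, the insulin-responsive transporter GLUT4, fell by 0.67 ± 0.11 and Eno1, an enolase, by 1.29 ± 0.22. Slc2a3, the transporter GLUT3, was the 1 gene that rose (0.91 ± 0.24, adjusted p = 0.0196, limma), by 0.25 with antibody and 1.58 without, and did not meet the rule for both states.

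Glycogen genes followed. Of 15 measured, 7 fell (6 in both states) and 0 rose. Pygl, a glycogen phosphorylase, had a median of 6479 on HF (5773 to 8302) and 16230 on CD (9905 to 23010), a difference of -1.23 ± 0.17 with no overlap. Gbe1, the branching enzyme, fell by 1.07 ± 0.16 without overlap, and Ppp1r3b, a subunit that targets protein phosphatase 1 to glycogen, differed by -2.38 ± 0.50.

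Of the genes for pyruvate entry into mitochondria and the tricarboxylic acid cycle, 17 of 25 fell, 16 of them in both states, and 0 rose (median -0.61). The falls numbered 11 without the 2 doubted libraries. Pdhb, a subunit of pyruvate dehydrogenase, read 6103, 5539, 4056 and 6811 in HF libraries with antibody and 6786, 4232, 4733 and 4297 in untreated HF libraries. The CD libraries read 16400, 15230, 10390 and 9495 with antibody and 6773, 11140, 21720 and 19450 untreated. Only untreated CD replicate 1 lay inside the HF range, and the difference was -1.31 ± 0.22 (adjusted p = 0.00368, limma). Mpc1 and Mpc2, the 2 subunits of the mitochondrial pyruvate carrier, fell by 1.13 ± 0.21 and 0.99 ± 0.19, and Pdk1, a kinase that inhibits pyruvate dehydrogenase, was lower too (-1.003 ± 0.20).

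Nuclear-encoded subunits of the respiratory chain were lower by less than 2-fold each. Of 40 measured, 39 fell, 36 of them in both states, and 0 rose (97.5% called beside 17.1% of all genes), with a median of -0.64 over all 16 libraries, -0.53 with antibody and -0.77 without. The exception was Atp5g1, a c subunit of ATP synthase (-0.05, adjusted p = 0.803, limma). With the muscle score as covariate 39 fell, and without the 2 doubted libraries 35 did. Cox5a, a subunit of cytochrome c oxidase, had a median of 2469 on HF (1862 to 3442) and 4627 on CD (2610 to 6710), a difference of -0.92 ± 0.18. Ndufa2, of complex I, differed by -0.56 ± 0.09, with nearly equal values in the 2 states (-0.55 with antibody and -0.56 without). Both overlap a gene on the opposite strand, Gm26631 and Tmco6.

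Mitochondrial ribosomal proteins, which translate the subunits encoded in mitochondrial DNA, showed a smaller shift of the same sign. Of 32 measured, 29 fell (21 in both states) and 0 rose, with a median of -0.35. Mrpl34 had a median of 404.8 on HF and 769.1 on CD, a difference of -0.93 ± 0.17, and Mrpl12 fell by 0.70 ± 0.12.

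Cholesterol synthesis fell in part. Of 23 measured genes of synthesis and uptake, 11 fell (9 in both states) and 0 rose, with a median of -0.42. Fdps, which makes farnesyl diphosphate, read 116.5, 142, 162.9 and 121.3 in HF libraries with antibody and 108.8, 130.9, 137.2 and 126 in untreated HF libraries. CD libraries read 297.3, 251.7, 185.9 and 188.2 with antibody and 200.3, 285.2, 323.8 and 410.6 untreated. No library overlapped, and the difference was -0.99 ± 0.15 (adjusted p = 0.00288, limma). Pmvk, the phosphomevalonate kinase, fell by 0.94 ± 0.15 without overlap, Fdft1, the squalene synthase, by 0.72 ± 0.12, and Idi1, the isopentenyl diphosphate isomerase, by 0.83 ± 0.18. Fdft1 overlaps Ctsb on the opposite strand.

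Promoter sequences are shown because many genes of fatty acid, sterol and respiratory chain synthesis fell together. They are RefSeq promoters of build GRCm38.p6, read in the 250 bases before the start listed first for each gene, and 11668 of 16084 gene symbols tested had one. Among 16 cholesterol genes with a promoter, 14 held CCAAT on either strand (87.5%), against 36.2% of the tested genes, 40.3% of 755 both-state falls and 39.4% of 393 both-state rises. GCGCATGC, the core of the motif bound by NRF1, a regulator of respiratory genes, was present on either strand in 4 of 29 respiratory chain genes (13.8%), 4 of 26 mitochondrial ribosomal genes (15.4%), 6.49% of both-state falls, 2.54% of both-state rises and 4.17% of the tested genes. CACGTG, an E-box, was in 8.87% of falls, 6.11% of rises and 8.18% of the tested genes. TCACNCCAC, a sterol element, was in 3 falls (0.397%), 6 rises (1.53%) and 0.926% of the tested genes. Of the 16 cholesterol genes 1 held it (6.25%). In all 27025 promoters of the table the shares were 34.5% (CCAAT), 2.32% (GCGCATGC), 6.05% (CACGTG) and 1.04% (TCACNCCAC). CACGTG reads the same on both strands, and matches may overlap each other. A match is a description of letters and does not show a bound site.

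The Fasn promoter (chr11:120824548-120824797, minus strand, written 5′ to 3′ toward the start) holds CCAAT on either strand beginning 90, 62 and 59 bases before the start, the last 2 overlapping, and the capitals mark them.
Fasn: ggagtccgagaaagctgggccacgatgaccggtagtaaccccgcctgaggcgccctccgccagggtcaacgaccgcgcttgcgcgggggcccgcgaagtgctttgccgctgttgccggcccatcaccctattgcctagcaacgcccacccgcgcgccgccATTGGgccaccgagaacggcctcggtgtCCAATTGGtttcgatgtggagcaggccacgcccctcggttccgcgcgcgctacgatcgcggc
Stretches of 30 bases around a CCAAT match on either strand follow for 6 genes that fell in both states, Thrsp at chr7:97417585-97417614 (minus strand), Pmvk at chr3:89454393-89454422 (plus), Idi1 at chr13:8885576-8885605 (plus), Lss at chr10:76531531-76531560 (plus), Nsdhl at chrX:72918489-72918518 (plus) and Tm7sf2 at chr19:6067880-6067909 (minus). The last 5 belong to cholesterol synthesis.
Thrsp: ggctgtgttgctCCAATggttgggctttgg
Pmvk: aactcaggttggCCAATtcacagcatctag
Idi1: catggtccaaggtgccATTGGctggcgacc
Lss: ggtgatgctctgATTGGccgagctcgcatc
Nsdhl: aagactagcctcATTGGgcaaaatcatgct
Tm7sf2: ctcccagcgctgATTGGctactgtgctggg
The matches to GCGCATGC, in capitals, are shown for 3 respiratory genes that fell in both states, Cox6a1 (cytochrome c oxidase) at chr5:115349100-115349129 (minus), Sdhb (succinate dehydrogenase) at chr4:140961206-140961235 (plus) and Cycs (cytochrome c) at chr6:50566611-50566640 (minus). In Cox6a1 a match on each strand overlaps the other.
Cox6a1: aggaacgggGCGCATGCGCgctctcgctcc
Sdhb: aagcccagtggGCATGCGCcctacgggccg
Cycs: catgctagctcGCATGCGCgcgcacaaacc

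Thermogenic adipocyte genes fell in part and varied widely between libraries. Of 25 measured, 10 fell (6 in both states) and 0 rose, with medians of -0.78 with antibody and -1.03 without, and without the 2 doubted libraries 3 fell. Atp2a1, Ryr1 and Ckmt2 of this list are also known from skeletal muscle, and none of these passed. Whether muscle RNA adds to other genes of the list, the 10 falls among them, was not tested. Cidea, a lipid droplet protein of brown and beige fat, read 4140, 2290, 201.1 and 4697 in HF libraries with antibody and 3808, 166.5, 570 and 347.1 in untreated HF libraries. In CD libraries it read 15440, 7966, 5823 and 4710 with antibody and 1042, 6274, 18910 and 13070 untreated. The difference was -2.77 ± 0.77 (adjusted p = 0.0241, limma), and it was lost without the 2 doubted libraries (adjusted p = 0.073). Ucp1, the uncoupling protein of thermogenic adipocytes, ran from 14.84 to 6111 on HF and from 206.8 to 44770 on CD, and did not pass (-3.84 ± 1.38, adjusted p = 0.0643, limma). Pm20d1, which makes N-acyl amino acids, differed by -0.91 ± 0.19 and Kcnk3, a potassium channel, by -1.004 ± 0.24. Ppargc1a, a coactivator of mitochondrial genes, did not pass (0.09 ± 0.14, adjusted p = 0.688), whereas Esrra, a nuclear receptor for mitochondrial genes, fell by 0.67 ± 0.17.

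Of 24 fatty acid oxidation genes 7 fell (6 in both states) and 1 rose, while 22 were lower on HF in the additive fit (median -0.50). The falls numbered 3 without the 2 doubted libraries and 15 with the muscle score as covariate. Etfb, of the electron transfer flavoprotein, fell by 0.55 ± 0.13, and Hadhb, of the trifunctional protein, by 0.92 ± 0.29. Hadhb was called in 6 of the 16 settings that leave out a library and missed the threshold without the 2 doubted libraries (adjusted p = 0.101, limma). Cpt1a, which admits long-chain fatty acids to mitochondria, was the 1 that rose: it had a median of 2625 on HF (2308 to 3820) and 1843 on CD (1442 to 2781), a difference of 0.50 ± 0.12 (adjusted p = 0.0149, limma), 0.59 with antibody and 0.41 without.

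Of 19 triglyceride synthesis genes 5 fell and 1 rose (31.6% called, beside 17.1% of all genes). The falls included Gpam, the first acyltransferase, by 0.62 ± 0.17, and Dgat1, the last, by 0.41 ± 0.10. Without the 2 doubted libraries 2 fell and 0 rose, and Gpam missed the threshold (adjusted p = 0.0691, limma). Of 17 lipolysis and adrenergic genes 1 fell (5.88%, beside 9.92% of all genes), Prkaca, a catalytic subunit of protein kinase A (-0.45 ± 0.09, no overlap). Lipe, the hormone-sensitive lipase, and Pnpla2, the triglyceride lipase ATGL, did not pass (-0.09 ± 0.08, adjusted p = 0.466, and -0.07 ± 0.13, adjusted p = 0.753, limma). Of 16 lipid droplet genes 2 rose and 4 fell (37.5% called, beside 17.1% of all genes), all 6 in both states. Without the 2 doubted libraries 2 fell. Plin4, a droplet coat protein of white adipocytes, had a median of 104000 on HF and 71500 on CD, a difference of 0.58 ± 0.12, and Cavin1, of caveolae, rose by 0.41 ± 0.08 without overlap. Cideb fell by 2.16 ± 0.52 from a low level, with 5.321 on HF and 29.91 on CD as medians, and both Plin4 and Cideb overlap a gene on the opposite strand.

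**Figure D3:**
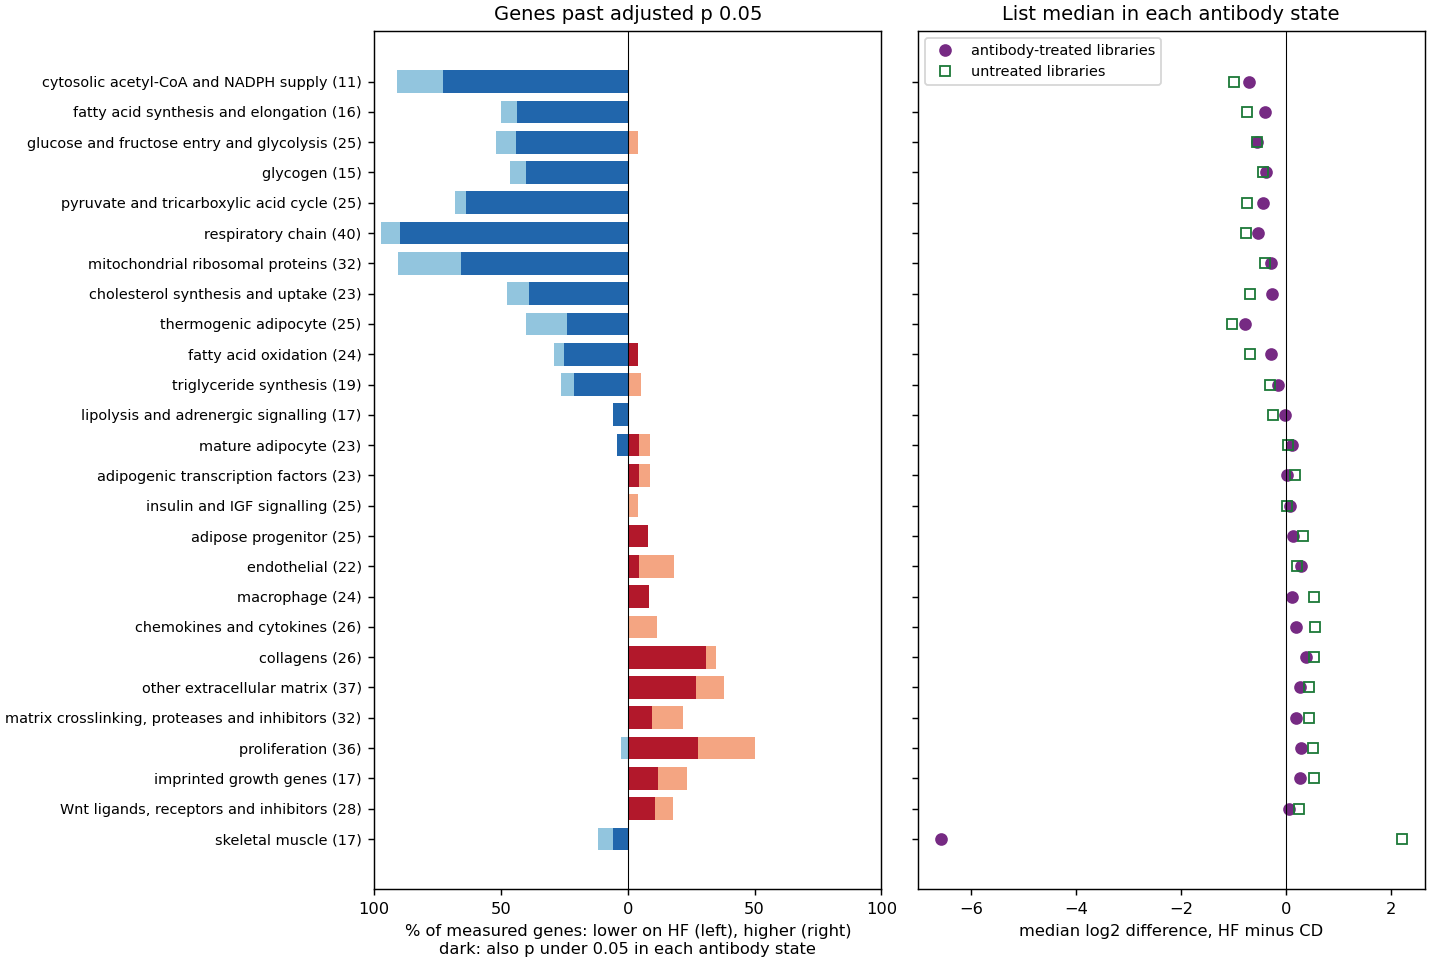
Left, the percentage of measured genes of 26 lists (number in brackets) that were lower or higher on HF at an adjusted p under 0.05, with genes that met the rule for both states in dark. Right, the median log2 difference of each list in antibody-treated libraries (filled circles) and untreated libraries (open squares), which had the same sign for the metabolic lists and opposite signs for skeletal muscle.

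Genes of adipocyte identity, insulin signalling and PDGF mostly did not pass. Adipoq, which encodes adiponectin, had a median of 91260 on HF and 88280 on CD (0.07 ± 0.08, adjusted p = 0.591, limma), and Pparg, the master factor of adipogenesis, 6441 and 8043 (-0.31 ± 0.18, adjusted p = 0.238). Lep, which encodes leptin, ran from 14340 to 61890 on HF and from 7059 to 34730 on CD and did not pass (0.61 ± 0.26, adjusted p = 0.109). Of 23 adipogenic factors 2 rose (8.7%, beside 7.22% of all genes) and 0 fell, and of 25 insulin and IGF genes 1 rose (4%) and 0 fell. Of 10 PDGF ligands, receptors and proteases 1 rose (10%), the receptor partner Lrp1 (0.34 ± 0.08). Pdgfc differed by 0.21 ± 0.12 (adjusted p = 0.246) and Pdgfra by 0.28 ± 0.11 (adjusted p = 0.103, limma).

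Adipokine genes held 5 rises and 1 fall among 20 (30% called, beside 17.1% of all genes), and 3 rises and 0 falls without the 2 doubted libraries. Sfrp5, a secreted Wnt inhibitor of adipocytes, read 1239, 2007, 2910 and 1856 in HF libraries with antibody and 1771, 1662, 644.4 and 1281 in untreated HF libraries. The CD libraries had 490.9, 424.4, 922.7 and 1628 with antibody and 925.9, 439.5, 159.5 and 405.6 untreated. The diets overlapped in each state, and the difference was 1.49 ± 0.35 (adjusted p = 0.0124, limma). Sncg, gamma-synuclein, rose by 0.85 ± 0.19, and Angptl4, an inhibitor of lipoprotein lipase, by 0.80 ± 0.19. Angptl4 did not meet the rule for both states.

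Of 26 collagens 9 rose (8 in both states) and 0 fell, with a median of 0.46, and of 37 other matrix genes 14 rose (10 in both states) and 0 fell, with a median of 0.40. Without the 2 doubted libraries 7 and 6 rose. The collagens that rose were chains of type IV, V, VI and XVIII collagen. Col6a3, a chain of the type VI collagen around adipocytes, read 21290, 17940, 23720 and 24420 in HF libraries with antibody and 23110, 27350, 29560 and 26850 in untreated HF libraries. On CD the values were 14100, 14500, 15280 and 15090 with antibody and 22890, 16840, 9359 and 13630 untreated. The diets did not overlap within either state, and the difference was 0.70 ± 0.14 (adjusted p = 0.00664, limma). Col1a1 and Col3a1 were higher by 0.46 ± 0.17 and 0.52 ± 0.18 and did not pass (adjusted p = 0.0751 and 0.0549).

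Other matrix rises included Hspg2, the basement membrane proteoglycan perlecan, by 0.62 ± 0.13, Prelp, a small leucine-rich proteoglycan, by 0.80 ± 0.15, and Lox, the collagen crosslinking oxidase, by 0.54 ± 0.10. Cthrc1, a secreted protein of activated fibroblasts, had a median of 65.86 on HF (21.43 to 178.3) and 17.78 on CD (11.85 to 34.41), a difference of 1.73 ± 0.40 (adjusted p = 0.0121, limma). Timp1, an inhibitor of matrix metalloproteinases, was higher by 1.10 ± 0.31, with overlap in each state, and was called in 14 of the 16 settings that leave out a library. Thbs1, thrombospondin 1, rose by 1.09 ± 0.28 and missed the threshold without the 2 doubted libraries (adjusted p = 0.0525). Of 25 adipose progenitor markers 2 rose (8%, beside 7.22% of all genes), Icam1 (0.46 ± 0.09) and Eng (0.33 ± 0.09), and 0 fell.

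**Figure D4:**
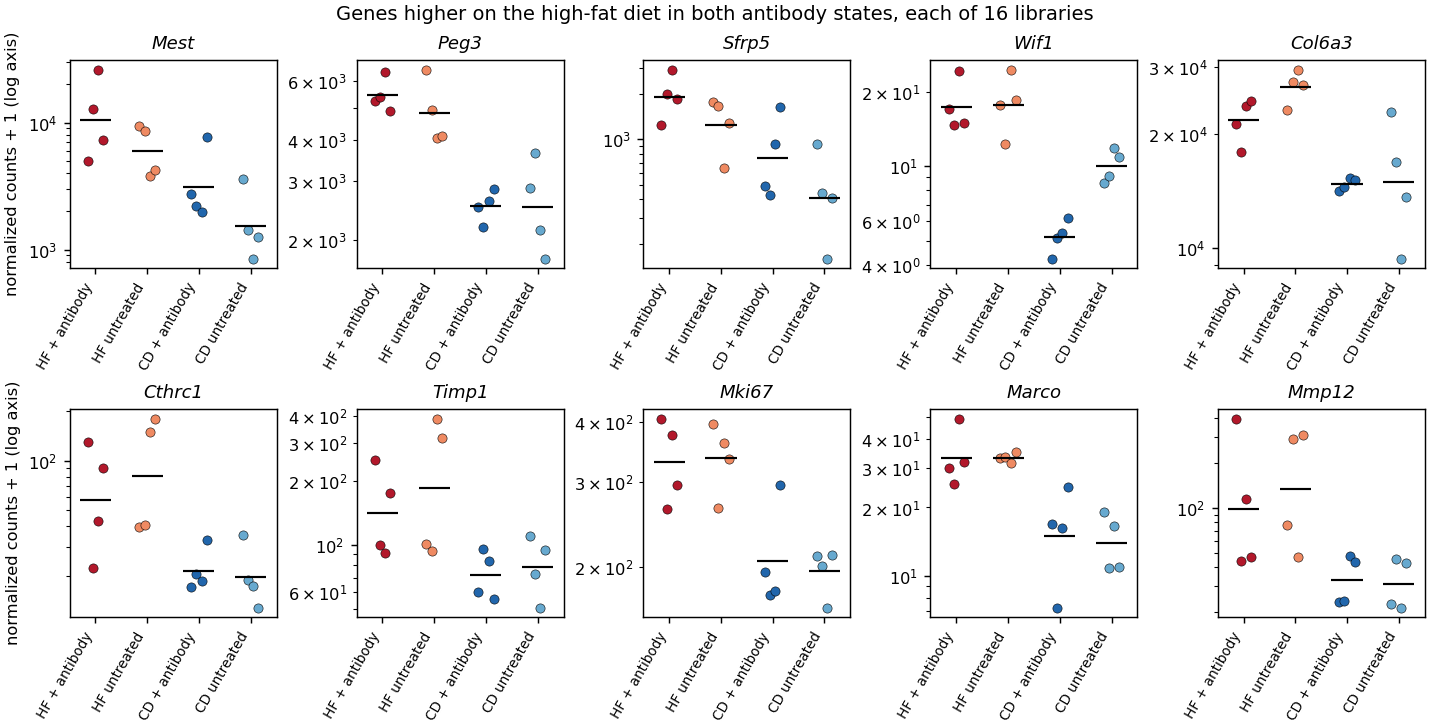
Normalized counts plus 1 on a log axis for 10 genes higher on HF in both states, with 1 dot per library and a line at the mean of the log2 values of each group of 4. Peg3, Wif1 and Marco had every HF library above every CD library, whereas Timp1 and Sfrp5 overlapped in each antibody state.

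Of 36 proliferation genes 18 rose (10 in both states) and 1 fell, with a median of 0.37, and without the 2 doubted libraries 12 rose. Mki67, the proliferation marker Ki-67, read 405.9, 263.3, 374.8 and 294.4 in HF libraries with antibody and 395.6, 264.5, 361.5 and 333.5 in untreated HF libraries. CD libraries read 194.1, 173.7, 177.1 and 295.5 with antibody and 209, 199.5, 163.2 and 210.7 untreated. The diets overlapped only through CD replicate 4 with antibody, and the difference was 0.73 ± 0.13 (adjusted p = 0.00439, limma). Ccna2, cyclin A2, rose by 0.81 ± 0.15, Top2a, a topoisomerase, by 0.65 ± 0.14, and Aurkb, a mitotic kinase, by 0.76 ± 0.16. The replication genes Pcna and Tyms did not pass (0.01, adjusted p = 0.95, and -0.04, adjusted p = 0.772, limma), and Cdkn2c, an inhibitor of cyclin-dependent kinases, was the 1 that fell (-0.29).

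All 24 macrophage genes measured were higher on HF in the additive fit, 2 rose by the test (8.33%, beside 7.22% of all genes, and 6 with the muscle score as covariate) and 0 fell, with a median of 0.33 that was 0.11 with antibody and 0.53 without. Marco, a scavenger receptor, had a median of 31.4 on HF (24.44 to 48.29) and 15.42 on CD (6.23 to 23.68), a difference of 1.202 ± 0.23 without overlap (adjusted p = 0.006, limma). Cd68, a lysosomal marker of macrophages, rose by 0.60 ± 0.14. Mmp12, the macrophage elastase, had a median of 95.18 on HF (42.95 to 396.9) and 32.12 on CD (20.43 to 46.7), and rose by 1.85 ± 0.48 (adjusted p = 0.0182, limma, and 0.0554 without the 2 doubted libraries). The pan-macrophage gene Adgre1 did not pass (0.28 ± 0.14, adjusted p = 0.164). Of 23 lipid-associated macrophage and lysosome genes 3 rose and 1 fell (17.4% called, beside 17.1% of all genes), with a median of 0.09. Atp6v0d2, a proton pump subunit of lipid-laden macrophages, rose by 1.26 ± 0.32, whereas Ctsd of the same list fell by 0.44 ± 0.10, both in both states.

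Of 26 chemokines and cytokines 3 rose (11.5%, beside 7.22% of all genes) and 0 fell, none in both states. The rises numbered 0 without the 2 doubted libraries and 9 with the muscle score as covariate. The list median was 0.20 with antibody and 0.55 without, a contrast that was not tested. Of 18 acute phase and metallothionein genes 3 rose, each in both states, and 2 fell (27.8% called, beside 17.1% of all genes). Saa3, a serum amyloid made in fat, had a median of 113.9 on HF (51.8 to 283.4) and 43.95 on CD (1.803 to 60.13), a difference of 1.72 ± 0.54 (adjusted p = 0.0396, limma), which was called in 6 of the 16 settings that leave out a library. Lbp, the lipopolysaccharide binding protein, rose by 0.96 ± 0.23 and Il1rn, the interleukin-1 receptor antagonist, by 1.47 ± 0.41. Il1rn missed the threshold without the 2 doubted libraries (adjusted p = 0.0715, limma), and Saa3 with the muscle score as covariate (adjusted p = 0.0516).

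Orm3, an orosomucoid of the acute phase family, went the other way and had the smallest adjusted p of all genes. It read 87.02, 84.2, 78.98 and 78.14 in HF libraries with antibody and 131.6, 135.6, 117.5 and 162 in untreated HF libraries. In CD libraries it read 235.7, 311.2, 230.5 and 242.9 with antibody and 231.6, 279.6, 590 and 367 untreated. No library overlapped, and the difference was -1.48 ± 0.15 (adjusted p = 0.000576, limma). Orm2 fell by 0.83 ± 0.18 without overlap, and as the orosomucoid genes are close copies of each other, their counts may share reads.

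Among imprinted growth genes 4 of 17 rose (23.5%, beside 7.22% of all genes) and 0 fell, and without the 2 doubted libraries 2 rose. Mest, a paternally expressed gene that is known to mark expanding fat, read 4967, 12840, 26170 and 7330 in HF libraries with antibody and 9422, 8631, 3803 and 4198 in untreated HF libraries. The CD libraries had 2750, 2211, 1983 and 7665 with antibody and 3581, 1419, 847.2 and 1264 untreated. The diets overlapped through CD replicate 4 with antibody, and the difference was 1.87 ± 0.38 (adjusted p = 0.0075, limma), a 3.65-fold higher level. Mest overlaps Copg2 on the opposite strand. Peg3, a paternally expressed zinc finger gene, had a median of 5067 on HF (4045 to 6511) and 2564 on CD (1753 to 3648), with no overlap and a difference of 1.02 ± 0.14 (adjusted p = 0.0022, limma), 1.11 with antibody and 0.94 without. Igf2 did not pass (0.29 ± 0.26, adjusted p = 0.455).

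Of 28 Wnt ligands, receptors and inhibitors 5 rose (17.9%, beside 7.22% of all genes), 3 of them in both states, and 0 fell. Without the 2 doubted libraries 3 rose. Wif1, a secreted Wnt inhibitor, was low in level and read 16.09, 13.69, 23.19 and 14 in HF libraries with antibody and 16.58, 11.29, 23.55 and 17.55 in untreated HF libraries. On CD the values were 3.231, 4.113, 4.37 and 5.157 with antibody and 7.571, 8.084, 10.81 and 9.896 untreated. No library overlapped, the difference was 1.29 ± 0.21 (adjusted p = 0.00358, limma), and it was 1.75 with antibody against 0.82 without. The limma fit across all genes gave an unadjusted interaction p of 0.0229. Bmp3, a ligand of the TGF-beta family, rose by 0.74 ± 0.19.

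Among the largest rises by the naming rule were genes known from neurons. Slc5a7, the high-affinity choline transporter, had a median of 238 on HF (100.8 to 1022) and 58.5 on CD (19.67 to 195.9), a difference of 2.12 ± 0.52 (adjusted p = 0.0145, limma). Tph2, a tryptophan hydroxylase known from serotonergic neurons, rose by 1.58 ± 0.35 and Cacna1e, a voltage-gated calcium channel subunit, by 1.51 ± 0.37. None of 13 measured Schwann cell and nerve markers passed. Synpo2, an actin-binding protein, rose by 1.23 ± 0.20, Tfpi2, a protease inhibitor, by 1.06 ± 0.18 without overlap, and Aldh1l2, of mitochondrial folate metabolism, by 0.98 ± 0.18 (it overlaps D10Wsu102e on the opposite strand).

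Other large falls were Aspg, an asparaginase (-3.26 ± 0.74), Acot11, an acyl-CoA thioesterase of brown fat (-3.12 ± 0.84, adjusted p = 0.0584 without the 2 doubted libraries), Sorcs2, a sorting receptor (-2.46 ± 0.49), Rap1gap, which inactivates Rap1 (-2.04 ± 0.46), and the mitochondrial carrier Slc25a48 (-2.03 ± 0.48). Myh2, a myosin of skeletal muscle, fell by 2.55 ± 0.83 (adjusted p = 0.0459, limma) and was called in 4 of the 16 settings that leave out a library.

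Among the smallest p-values stood several genes with moderate falls and no overlap between 8 and 8 libraries. These were Mapk8ip1, the scaffold JIP1 (-1.11 ± 0.14, adjusted p = 0.00198, limma), Slc25a35, a mitochondrial carrier (-0.94 ± 0.12), Dhrs7, a dehydrogenase (-0.99 ± 0.13), and Cdo1, the cysteine dioxygenase of taurine synthesis (-0.63 ± 0.08). Nap1l1, a nucleosome assembly protein, and Peg3 were the rises among the 10 smallest p-values (Nap1l1 0.52 ± 0.07). Mapk8ip1 and Slc25a35 overlap a gene on the opposite strand, as do Srebf1, Mlx, Mpc1, Kcnk3, Esrra, Prelp, Ccna2, Eng and Lipe among the genes above, and Tm7sf2 overlaps Vps51 on its own strand.

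Redox and eicosanoid genes moved in both directions. Of 24 glutathione and antioxidant genes 7 fell and 2 rose (37.5% called, beside 17.1% of all genes). Without the 2 doubted libraries 4 fell and 1 rose. Gsta4, a glutathione transferase for lipid aldehydes, had a median of 541.5 on HF (458.9 to 605.2) and 910.9 on CD (689.6 to 1236), a difference of -0.73 ± 0.105 with no overlap (adjusted p = 0.00223, limma). Gpx4, the peroxidase that reduces lipid hydroperoxides, fell by 0.65 ± 0.12, and Sod3, the extracellular superoxide dismutase, rose by 0.28 ± 0.06. Of 19 eicosanoid enzymes 2 fell and 3 rose (26.3% called, beside 17.1% of all genes), all 5 in both states. Ptges, a prostaglandin E synthase, fell by 0.62 ± 0.11 and Hpgd, which degrades prostaglandins, rose by 0.47 ± 0.09. Pla2g5, a secreted phospholipase, rose by 0.97 ± 0.26 and was called in 15 of the 16 settings that leave out a library.

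**Figure D5:**
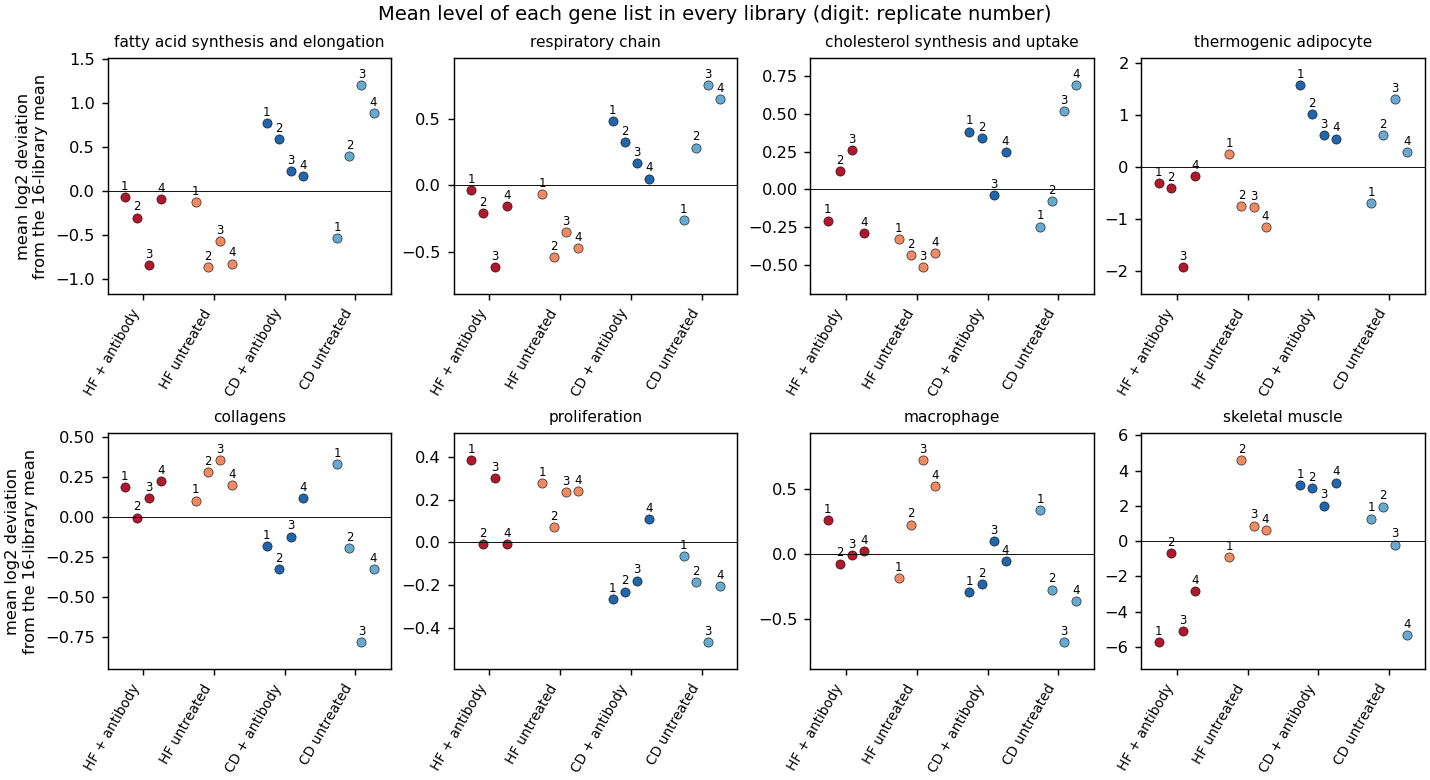
Mean log2 deviation of 8 gene lists from the mean of all 16 libraries, with 1 point per library numbered by replicate. For the respiratory chain every HF library lay below every CD library but untreated CD replicate 1, and the muscle genes of CD libraries with antibody (2.02 to 3.32) lay above those of HF libraries with antibody (-5.72 to -0.658).

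Lists of other cell types were read beside the 7.22% of all genes that rose. Of 22 endothelial genes 4 rose (18.2%), among them Vwf (0.52 ± 0.13), and 0 fell, and all 22 were higher on HF in the additive fit. Of 16 pericyte and smooth muscle genes 4 rose (25%) and 0 fell. Without the 2 doubted libraries 2 endothelial genes rose, and 1 pericyte and smooth muscle gene rose and 1 fell. None of the MHC class II (10), B cell (10), neutrophil (5), blood (8), mammary and skin epithelium (5) and lymph node stroma (3) genes measured passed, and 1 of 15 T cell genes did (Il7r, 0.90 ± 0.28, called in 7 of the 16 settings that leave out a library, adjusted p = 0.0948 without the 2 doubted libraries, limma). The mean log2 deviation of 20 circadian clock genes was -0.553 and -0.467 in untreated CD replicates 1 and 2, against 0.167 and 0.196 in replicates 3 and 4. In untreated HF libraries it ran from -0.371 to 0.0827. With antibody it ran from 0.254 to 0.329 in CD and from -0.0821 to 0.135 in HF libraries, without overlap. The part of collection time in the diet comparison was not tested in either antibody state.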

How the data were processed

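The deposited table holds a linear signal, normalized counts for 16091 genes in 16 libraries, which the authors made. The submitters' processing notes name fastp 0.20.1, STAR 2.7.0e, featureCounts, Subread 1.6.2, limma 3.42.2 and the builds mm10 and GRCm38, with no roles, and how the counts were normalized is not stated. Per the labels' protocols the libraries were made with a stranded poly-A kit. The strand setting of the counting is not given, so genes with exons overlapping another gene are uncertain. Whole reads could not be recovered, so the depth is unknown and no counting interval was computed. Of the gene IDs 16081 were found in GENCODE release M21, which gave coordinates.

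Groups came from the labels. Diet differences were fitted with limma 3.58.1 in R 4.3.3 on log2(value + 1) with a variance trend, all genes, antibody additive, and Benjamini-Hochberg adjustment over all genes. Separate fits to each antibody state and an interaction fit followed. The procedure was tested on simulated data. Alternatives covered low genes, pseudocounts, normalization, variance models, weights, a replicate block, covariates, thresholds and each library left out.

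The members and the 56 gene lists (1042 of 1108 genes measured) were chosen with earlier results of these data known. Named genes were the 15 largest rises and falls with a mean of at least 100 normalized counts, the 10 smallest p, up to 6 genes of each list by p, the 3 smallest interaction p in each direction and a fixed set. Idh1, Pcna, Tyms, Cdkn2c, Adgre1, Igf2, Lipe, Pnpla2, Col1a1, Col3a1, Lss, Tm7sf2, Cox6a1, Sdhb, Cycs, Ppargc1a, Slc2a3, Atp5g1, Acta1, Ryr1, Ckmt2 and the genes at the threshold fall outside it and were chosen after their values were seen. Some genes that the rule names are not reported here.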

Additional observations from a re-analysis of the deposited data

Results flagged for a closer look

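In 4 of 164 groups of 4 libraries looked at (33 genes and 8 lists), 1 library stood far from the other 3 of its group by Dixon's ratio of gap to range at the 95% level. Chance flags about 1 group in 20. The thermogenic list was low in HF replicate 3 with antibody, at -1.92 (ratio 0.868). Pygl was high in untreated HF replicate 1, at 8097 (ratio 0.845). Lep was low in untreated CD replicate 2, at 7059 (ratio 0.891), and Acta1 in CD replicate 3 with antibody, at 5982 (ratio 0.895).

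In 4 of the 16084 gene symbols tested, the 4 HF libraries lay beyond the 4 CD libraries in each antibody state, in opposite directions. In 374 of 16091 genes they did so in the same direction. How many such genes would arise by chance was not tested. None of the 4 passed the interaction test after adjustment (limma). Lysmd4, which overlaps Mef2a on the opposite strand, differed by 0.35 with antibody and -0.18 without, an interaction of 0.5332 (unadjusted p = 0.000375, adjusted p = 0.256). Elmod1 differed by -1.14 with antibody and 0.47 without, an interaction of -1.603 (adjusted p = 0.256). Cd24a differed by -0.64 with antibody and 0.91 without, an interaction of -1.542 (adjusted p = 0.272). Orc2, which overlaps Nif3l1 on the opposite strand, differed by 0.11 with antibody and -0.29 without, an interaction of 0.4062 (adjusted p = 0.276).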

How the results depend on the processing

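The 2758 genes by diet kept their sign under every alternative run, except Scd1 under quantile normalization, where it is the most abundant gene of each library and its difference is 0 by construction. The genes were chosen for a difference in these same libraries, so kept signs were nearly fixed in advance and are no separate support. Leaving out 1 library at a time gave 1583 to 4256 genes by diet (609 to 2025 higher, 974 to 2231 lower) and 869 to 2019 in both states (302 to 777 higher, 567 to 1242 lower), with 0 to 1 interaction. Without the 2 doubted libraries 1746 genes differed (702 higher, 1044 lower), 698 of them in both states (295 and 403). Antibody-treated libraries alone gave 665 (123 higher, 542 lower), and untreated ones 0 (0 and 0). Nr4a1 was -1.13 in antibody-treated libraries alone, against 0.29 overall. With the muscle score as covariate 80 genes passed in both states (21 higher, 59 lower). At an adjusted p under 0.01 there were 549 genes (174 higher, 375 lower) and 534 in both states (162 and 372), and at 2-fold or more 212 (59 and 153) and 161 (42 and 119). Defining both states by an adjusted p in each alone gave 0 (0 and 0), by no overlap in each 373 (134 and 239), and by 1 fit of 4 group means 1 (0 and 1). The causes were not tested.

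Same-numbered libraries share only a number, with correlations of their deviations from -0.558 to 0.51. With the replicate block 1658 genes differed (651 higher, 1007 lower), 948 in both states (314 and 634), and 1 interaction passed.

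The labels do not say that the libraries are separate mice, the depth is unknown, and muscle level follows diet in antibody-treated libraries.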
